A study of Homo sapiens with 18 samples.

Results

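The cytochrome P450 (CYP) genes of A549 cells, with the P450 reductase and the receptors that sense foreign compounds and vitamin D, were followed through treatment with sodium propionate (SP). The set held 41 genes of the 61541 listed in the count tables: 35 CYP genes, the reductase gene POR, the receptor genes AHR, VDR and NR1I2, and AHRR and TIPARP, which feed back on AHR. They were taken by their symbols in the GENCODE annotation of GRCh38, and all 41 were found. The list itself was drawn up with earlier results of these data known, so the shares of members that changed are descriptions of these genes. The CYP26 genes and CYP51A1 were left out of the set. A549 is an established human lung adenocarcinoma line, here unmodified and grown in DMEM with fetal bovine serum, so every result comes from 1 cell line.

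P450 enzymes are haem proteins that insert an oxygen atom into their substrates. Those of the endoplasmic reticulum draw their electrons from NADPH through POR, and the mitochondrial ones through adrenodoxin and its reductase. Some clear drugs and smoke constituents, others make or break down fatty acid mediators, bile acids, steroids and the hormonal form of vitamin D. The aryl hydrocarbon receptor (AHR) pairs with ARNT to switch on CYP1 genes together with AHRR and TIPARP, which restrain it. The vitamin D receptor (VDR) induces CYP24A1, whose product breaks down the hormone, and the pregnane X receptor (NR1I2) induces CYP3A genes in liver and gut.

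RNA-seq was deposited as 2 tables of read counts, with 3 libraries in each of 6 groups. The first table held untreated cells at 3 days (Control_3D) and cells in 5 mM SP for 3 days (SP_3D) or 12 days (SP_12D). The second held untreated cells at 24 h (Control_24H) and cells in 5 mM SP for 3 h (SP_3H) or 24 h (SP_24H). No untreated group was analysed here at 12 days or at 3 h, so for these times the effect of SP and that of the time in culture cannot be told apart. The libraries held 15425281 to 21992046 counted reads in the first table and 14187401 to 43765330 in the second. The study calls its 3 h and 24 h RNA-seq libraries biological replicates, and gives those of 3 and 12 days as 3 per group. It does not say that each library came from a culture of its own. The p-values thus measure the spread between libraries of a group, which may be partly technical. On the second principal component of the first table, SP_12D replicate 3 lay at 2.63, against 13.6 and 15.4 for the other two SP_12D libraries and between -11.02 and -9.49 for SP_3D. The 5 epithelial markers summed to 6000 to 7730 CPM in Control_3D (a gene's reads scaled to the same library depth) and to 11700 to 12500 in SP_3D, and all 5 rose. Hepatocyte markers (3 genes) summed to at most 0.827 CPM and immune markers (4 genes) to at most 0.877 CPM in any library. Endothelial markers (3 genes) summed to 2.44 to 2.88 CPM in Control_3D, 1.59 to 1.97 in SP_3D and 1.25 to 1.46 in SP_12D, with CDH5 lower at both times, and to 0.245 to 1.3 in the second table. The 4 fibroblast markers summed to 14.1 to 14.3 CPM in Control_3D and 60.7 to 70.7 in SP_3D, and to 6.41 to 21.5 in Control_24H and 61.9 to 89.1 in SP_24H. Only COL1A1 and LUM of these were tested in the first table, and both rose, while DCN was at 0 in Control_3D and in all libraries of the second table. Their part in the results below was not tested.

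Of the 41 genes, 27 held enough reads to be tested in the first table and 23 of these in the second. Per kilobase of exon, CYP24A1, the vitamin D 24-hydroxylase, stood far above the rest, at 370.4 ± 23.9 RPKM (reads per kilobase of exon, scaled to depth like CPM; mean ± SD, n = 3) in Control_3D, rank 56 of the 17775 genes tested. CYP2S1, a P450 of epithelial cells, followed at 46.2 ± 5.76 and POR at 36.4 ± 3.42. The order of these 2 depends on the gene length used: per kilobase of the longest transcript, POR stood at 74.9 and CYP2S1 at 47.99. CYP1B1, which oxidises polycyclic hydrocarbons and oestrogens, came next at 9.60 ± 0.675. The leukotriene hydroxylase CYP4F3, its relative CYP4F11 and AHR lay between 5.34 and 7.84, and TIPARP, CYP2R1, CYP20A1, CYP4F12, CYP3A5, CYP2U1, CYP4V2, CYP2W1, CYP27C1 and VDR between 1.03 and 4.82. CYP27B1, CYP7B1, CYP2D6, CYP39A1, CYP1A1, AHRR, CYP11A1, CYP46A1, CYP4F22 and CYP2J2 were under 1. On this scale CYP1A1, the classical smoke-inducible P450, was at 0.0577 ± 0.041 in Control_3D.

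**Figure D1:**
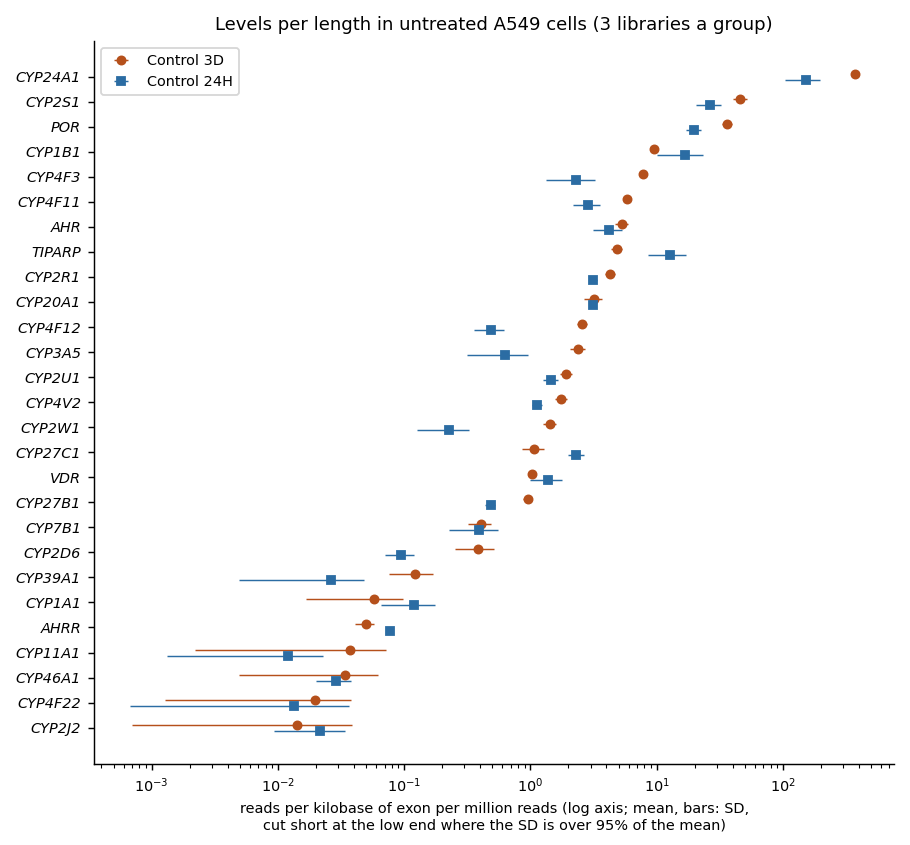
Level of each tested gene in untreated cells, in RPKM on a log axis, with points for the mean of 3 libraries and bars for the SD. The 2 tables were normalised separately, so the 2 control groups are set side by side and not compared. CYP24A1 stands at 370.4 in Control_3D and at 151.6 in Control_24H, above every other gene shown.

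The other 14 genes were tested in neither table. CYP1A2, a liver enzyme, had 0 reads in all 18 libraries, which allows up to 3 reads per group. CYP2B6, CYP2C8, CYP3A4, CYP3A7, CYP3A43, CYP4B1, CYP4X1, CYP8B1, CYP19A1 and NR1I2 had at most 11 reads summed over the 3 libraries of any group, CYP27A1 had at most 19, CYP2E1 at most 25 and CYP4F2 at most 26. NR1I2, the pregnane X receptor, had 1, 2 and 1 reads in the Control_3D libraries, 4, 0 and 6 in SP_3D and 1, 2 and 6 in SP_12D. In the second table it had 1, 0 and 0 reads in Control_24H, 0, 2 and 0 in SP_3H and 2, 0 and 2 in SP_24H, so its level was close to the limit of detection in each group. CYP2E1, the ethanol oxidase, had 1, 0 and 3 reads in Control_3D and 8, 7 and 9 in SP_3D, a depth-adjusted ratio of 6.52 (95% exact interval 2.24 to 25.8, counting error only). Of the 9622 exonic bases of CYP2E1, 2442 overlap other genes, mainly SYCE1 on the opposite strand, and the strand setting of the counting is not given in the sources used here.

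Changes were judged by edgeR's quasi-likelihood test, with p-values adjusted over all genes tested in a comparison. A gene is said to have risen or fallen at an adjusted p under 0.05, and to be called at an adjusted p under 0.0001 with at least a 2-fold change. After 3 days of SP, CYP1A1, the fatty acid hydroxylase CYP2U1 and VDR were called higher and CYP4F3 was called lower. After 12 days, CYP1A1, VDR and the oxysterol hydroxylase CYP39A1 were called higher and CYP4F3 lower. At 3 and 24 h no member was called.

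In SP_3D, 15 of the 27 tested members rose (55.6%) and 3 fell (11.1%), beside 25.2% and 23.3% of all 17775 genes tested. The members' median log2 fold change was 0.69, beside -0.02 over all genes. CYP1A1, CYP2J2, CYP4F22, CYP11A1, CYP39A1, CYP46A1 and AHRR rose at 3 and 12 days and had enough reads for a test only through SP libraries. They could hardly have been tested without a rise, so they raise the members' shares and medians. How many of all genes were tested in this way was not counted. Under the stricter rule 3 members were called higher and 1 lower (11.1% and 3.7%), beside 6.58% and 1.86% of all genes. In SP_12D against the same controls, 14 members rose and 7 fell (51.9% and 25.9%), beside 26.4% and 23.4% of all genes, with a median of 0.26. The stricter rule gave 3 higher and 1 lower, beside 6.88% and 2.23% of all genes. Without SP_12D replicate 3, which stood apart, the called members of SP_3D numbered 9 (7 higher and 2 lower), the spread being estimated from all libraries of a table. In SP_12D they then numbered 6 (3 higher and 3 lower), with 12 members risen and 7 fallen. In SP_12D the called members numbered 2 without Control_3D replicate 2, Control_3D replicate 3 or SP_3D replicate 3, and 1 without SP_12D replicate 1. With a library left out, calls over all genes were not counted, so whether they moved likewise was not tested. In bulk RNA, fewer cells that express a gene and less RNA of it per cell cannot be told apart.

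In SP_24H, 12 of the 23 tested members rose and 3 fell (52.2% and 13.0%), beside 16.8% and 12.0% of 17377 genes, and the members' median log2 fold change was 0.59, beside -0.01 over all genes. No member was called by edgeR, beside 0.622% of all genes higher and 0.0633% lower, while 16 members and 7146 genes had an unadjusted p under 0.05. DESeq2 called 5 members, beside 997 genes higher and 195 lower by the same tool. With the replicate number as a block, 12 members again rose and 3 fell, 14 of the 15 being shared, and CYP46A1 was replaced by CYP4F11. In SP_3H, 4 members rose and 2 fell (17.4% and 8.7%), beside 7.39% and 4.11% of all genes, with a median of 0.24. No member was called at 3 h and no gene in either direction (0.0%), while 8 members and 4367 genes had an unadjusted p under 0.05. DESeq2 called 1 member, beside 297 genes higher and 118 lower. Leaving out Control_24H replicate 2 or SP_3H replicate 2 left 3 changed members at 3 h, and leaving out SP_24H replicate 2 left 8 at 24 h. Changes over all genes were not counted in these fits. CYP1A1, CYP4F22 and CYP46A1 had enough reads for a test in the second table, too, only through SP libraries. The 2 comparisons of a table share their control libraries.

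**Figure D2:**
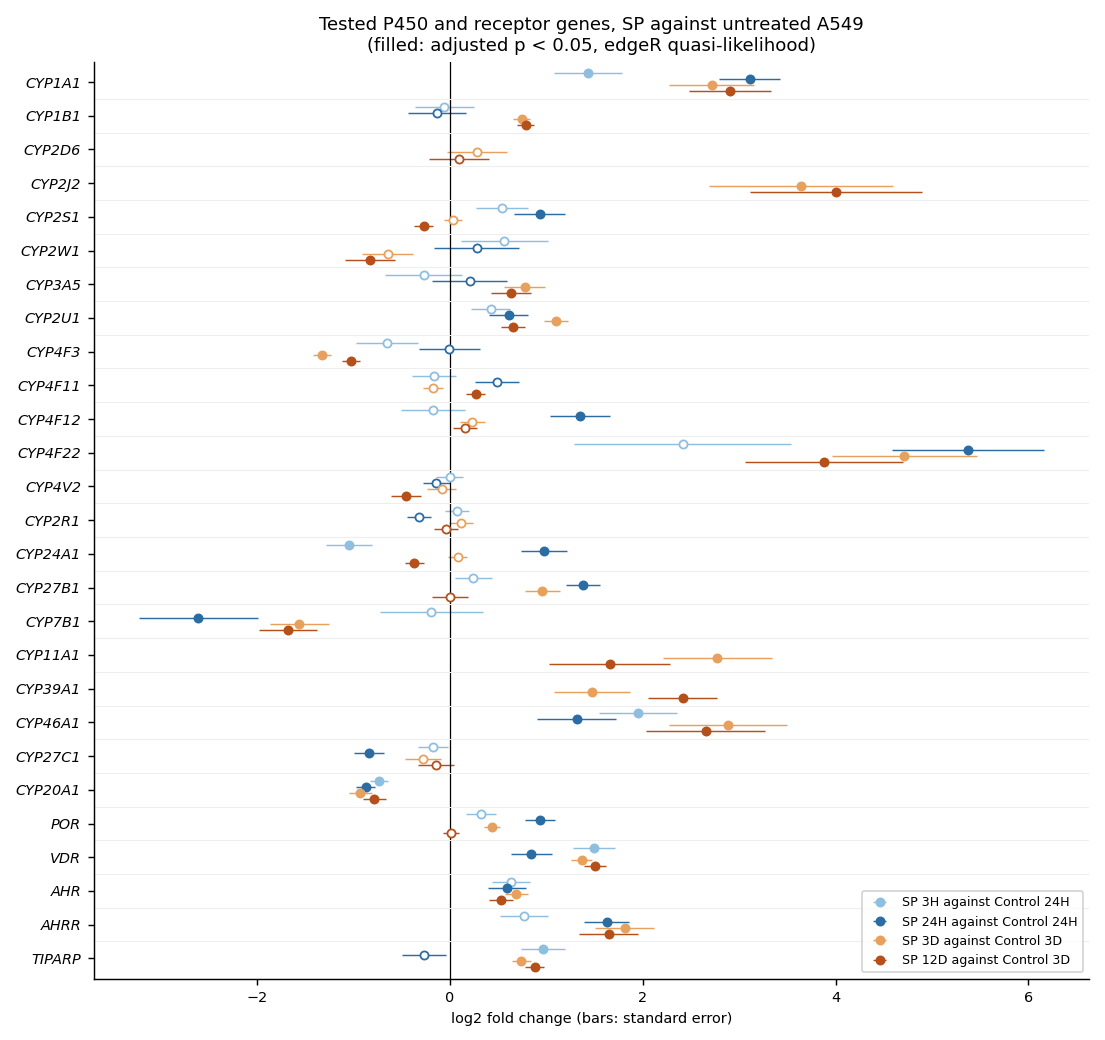
Log2 fold change of each of the 27 tested genes in SP against the untreated cells of the same table, with bars for the standard error and filled points for an adjusted p under 0.05. CYP2D6, CYP2J2, CYP11A1 and CYP39A1 were tested in the first table only. CYP1A1, CYP46A1 and VDR have filled points to the right at all 4 times, and CYP20A1 to the left at all 4, but CYP46A1 at 24 h had an adjusted p of 0.0667 with the replicate number as a block.

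The genes of the AHR loop rose in SP on the scale of days. CYP1A1, at chr15:74719542-74725536 of GRCh38 on the minus strand, held 7, 3 and 1 reads in the Control_3D libraries, 16, 29 and 23 in SP_3D and 22, 34 and 36 in SP_12D, so that the groups did not overlap. In SP_3D it rose by a log2 fold change of 2.72 ± 0.438 (SE, adjusted p = 9.84e-05) and in SP_12D by 2.91 ± 0.423 (adjusted p = 3.5e-05). As ratios of depth-adjusted reads these are 6.72 (95% exact interval 3.53 to 14.1) and 7.70 (4.11 to 16). Leaving out Control_3D replicate 1, which held 7 of the 11 control reads, moved the 2 values to 3.42 and 3.61. The stricter call was lost at 3 days without any library of Control_3D or SP_3D or without SP_12D replicate 1 (adjusted p up to 0.00101), and at 12 days without Control_3D replicate 2 or 3, SP_3D replicate 3 or SP_12D replicate 1 (up to 0.000448).

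CYP1A1 rose further between 3 and 24 h. The Control_24H libraries had 11, 4 and 12 reads, SP_3H 15, 42 and 21, and SP_24H 104, 148 and 93. In CPM these are 0.211 to 0.582, 0.856 to 1.36 and 3.14 to 4.21, with no overlap between the groups. The log2 fold change was 1.43 ± 0.351 at 3 h (adjusted p = 0.0283) and 3.11 ± 0.317 at 24 h (adjusted p = 1.83e-04), and SP_24H exceeded SP_3H by 1.68 ± 0.275 (adjusted p = 0.0036). The rise at 3 h was lost without Control_24H replicate 2 or 3 or SP_3H replicate 1 or 2 (adjusted p up to 0.128), and when only the 2 groups compared were fitted (0.0888). Even at 24 h the mean level per length was 1.06 RPKM, beside 15.2 for CYP1B1 in the same libraries.

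The bases before the starts of CYP1A1, AHRR and TIPARP are shown because these 3 genes, the usual readout of AHR, moved with SP. They are the 250 bases before the RefSeq start listed first for each gene in GRCh38.p14, which need not be its most upstream start. They are written 5′ to 3′ on the gene's strand. Capitals mark GCGTG, the core of the element bound by AHR and ARNT, or its complement CACGC. CYP1A1 is read from chr15:74725529-74725778 on the minus strand, AHRR from chr5:321464-321713 on the plus strand and TIPARP from chr3:156674340-156674589 on the plus strand.
CYP1A1: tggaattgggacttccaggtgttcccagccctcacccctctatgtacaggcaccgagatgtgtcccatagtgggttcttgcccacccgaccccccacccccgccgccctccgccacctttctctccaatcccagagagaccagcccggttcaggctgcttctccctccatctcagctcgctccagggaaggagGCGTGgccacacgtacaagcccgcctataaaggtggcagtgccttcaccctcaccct
AHRR: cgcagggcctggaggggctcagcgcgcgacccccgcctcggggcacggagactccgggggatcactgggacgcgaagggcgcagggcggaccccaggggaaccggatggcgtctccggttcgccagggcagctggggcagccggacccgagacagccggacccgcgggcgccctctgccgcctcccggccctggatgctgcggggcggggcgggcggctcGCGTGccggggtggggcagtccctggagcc
TIPARP: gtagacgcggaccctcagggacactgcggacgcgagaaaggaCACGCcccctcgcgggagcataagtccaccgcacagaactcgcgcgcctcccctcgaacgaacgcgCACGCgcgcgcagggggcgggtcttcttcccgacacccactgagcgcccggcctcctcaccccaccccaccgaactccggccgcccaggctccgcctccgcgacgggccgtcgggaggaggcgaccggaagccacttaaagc
Counted from the start site, with the base before it at -1, the core begins at -57 in CYP1A1 and at -30 in AHRR, and its complement begins at -208 and -142 in TIPARP. RefSeq windows were at hand for 31 of the 41 genes, and 8 of these (25.8%) held the core on either strand, beside 32.2% of all 35116 windows of this length. AHR itself had none, and CYP1B1, POR, VDR, CYP24A1 and CYP27B1 had no entry. The windows of TIPARP and AHR lie inside the spans annotated for these genes, which begin upstream at chr3:156673235 and chr7:16916359. The 5 letters are common, so a match is a description of the window and not a binding site.

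AHR, the receptor, lies on chromosome 7 at chr7:16916359-17346152 of GRCh38 on the plus strand. Its Control_3D libraries had 40.3, 49.0 and 39.8 CPM, SP_3D 75.7, 73.0 and 59.2, and SP_12D 60.6, 53.9 and 71.2, all above the controls. It rose by 0.69 ± 0.122 (adjusted p = 2.6e-04) in SP_3D and by 0.53 ± 0.121 (adjusted p = 0.0021) in SP_12D. Control_24H had 35.6, 41.7 and 24.5 CPM, SP_3H 47.9, 54.8 and 55.5, and SP_24H 44.3, 61.4 and 47.5, again without overlap. The difference was 0.64 ± 0.197 at 3 h, which did not pass (adjusted p = 0.0681), and 0.59 ± 0.197 at 24 h, which passed at an adjusted p of 0.0484 but not without any library other than Control_24H replicate 2 (adjusted p up to 0.185), nor with only the 2 groups fitted (0.11) or DESeq2's size factors (0.0515). Of its 8051 exonic bases, 2830 overlap other annotated genes.

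AHRR, at chr5:321714-438291 on the plus strand, encodes a repressor that competes with AHR for ARNT. It was scarce and rose in 3 of the 4 comparisons. Control_3D libraries had 0.43, 0.564 and 0.414 CPM, SP_3D 1.71, 1.71 and 1.55, and SP_12D 1.14, 1.45 and 1.77, with no overlap between control and SP. The log2 fold change was 1.81 ± 0.307 in SP_3D (adjusted p = 1.52e-04) and 1.65 ± 0.306 in SP_12D (adjusted p = 3.45e-04). In the second table the 3 libraries had 0.688, 0.74 and 0.771 CPM in Control_24H, 1.48, 1.43 and 0.897 in SP_3H and 2.43, 2.33 and 2.09 in SP_24H. This is 0.77 ± 0.252 at 3 h (adjusted p = 0.0843) and a rise of 1.63 ± 0.235 at 24 h (adjusted p = 0.00111). PDCD6-AHRR, a readthrough gene, shares 5561 of the 9480 exonic bases of AHRR, so reads could be split between these genes.

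TIPARP, an ADP-ribosyltransferase that dampens AHR, followed another course within the first day. Control_24H libraries had 84.9, 49.3 and 49.6 CPM, SP_3H 116.1, 110.8 and 131.2, and SP_24H 63.1, 46.1 and 43.3. It rose by 0.96 ± 0.226 at 3 h (adjusted p = 0.0244) and differed by -0.27 ± 0.225 at 24 h (adjusted p = 0.388), and SP_24H lay below SP_3H by -1.23 ± 0.227 (adjusted p = 0.00612). The rise at 3 h was lost without Control_24H replicate 2 or any SP_3H library (adjusted p up to 0.0864), and with only the 2 groups fitted (0.0502). In Control_3D the level was 24.7, 24.1 and 20.6 CPM, in SP_3D 40.8, 37.9 and 37.5, and in SP_12D 43.9, 46.3 and 37.6. Here the groups did not overlap, and the rise was 0.74 ± 0.103 (adjusted p = 2.29e-05) and 0.88 ± 0.102 (adjusted p = 3.51e-06).

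CYP1B1, which AHR also induces, rose on the scale of days and not within the first day. Control_3D had 59.3, 61.0 and 53.2 CPM, SP_3D 99.4, 102.2 and 89.0, and SP_12D 102.8, 102.3 and 93.9, with rises of 0.74 ± 0.0854 (adjusted p = 3.32e-06) and 0.78 ± 0.0852 (adjusted p = 1.7e-06). Control_24H libraries spread widely, with 143.2, 94.7 and 64.6 CPM, and overlapped SP_3H with 100.9, 100.7 and 88.6 and SP_24H with 128.2, 81.0 and 66.3. The differences there were -0.06 ± 0.303 (adjusted p = 0.939) and -0.14 ± 0.303 (adjusted p = 0.759). Other genes, mainly the antisense gene CYP1B1-AS1, overlap 783 of its 6024 exonic bases.

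**Figure D3:**
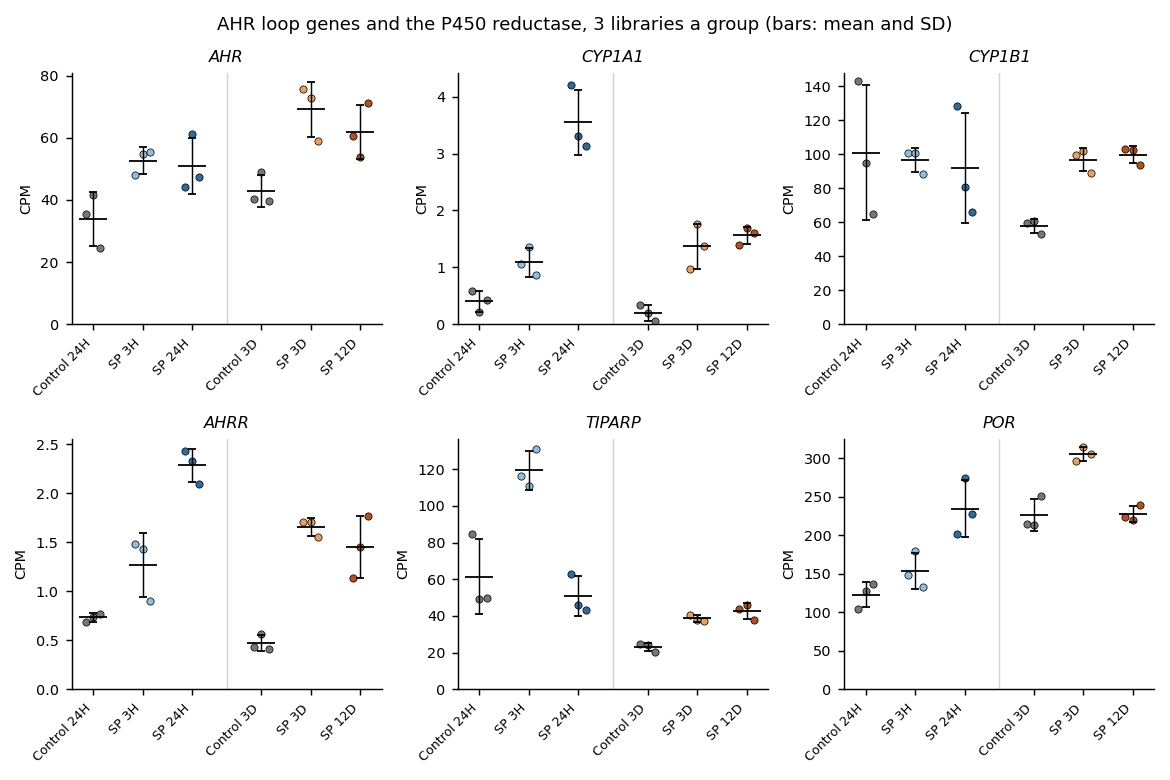
CPM of AHR, CYP1A1, CYP1B1, AHRR, TIPARP and POR in each library (points), with horizontal marks for the mean of 3 and bars for the SD; the grey line parts the 2 tables. In the first table the SP libraries of the first 5 genes all lie above those of Control_3D, while TIPARP peaks in SP_3H in the second table at 110.8 to 131.2 CPM.

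Genes that work around AHR did not move as one. Of 6 partner genes, which fold or pair with the receptor, none rose and 2 fell in SP_3D, beside 25.2% and 23.3% of all genes. Among those that fell was ARNT2 with -0.30 ± 0.0873 (adjusted p = 0.0108). The fall of ARNT2 was lost without SP_3D replicate 2 (adjusted p = 0.06). Of 4 tested AHR targets outside the set, UGT1A6, a glucuronidating enzyme, rose by 2.11 ± 0.401 (adjusted p = 4.45e-04), and ALDH3A1, an aldehyde dehydrogenase, fell by 2.58 on the log2 scale (SE 0.121, adjusted p = 2.39e-10). The UGT1A genes share their last exons, so reads could be split between them.

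The other P450s of foreign compounds changed less uniformly. CYP2S1 averaged 72.0 ± 16.2 CPM in Control_24H and 137.3 ± 20.6 in SP_24H, a rise of 0.93 (adjusted p = 0.0293) that was lost without Control_24H replicate 1 or 2 or SP_24H replicate 2 or 3 (up to 0.118). With a correction for GC content and length this rise shrank to 0.58 (0.0316). In SP_3D it stood at 127.7 ± 11.1 CPM beside 125.4 ± 15.6 in Control_3D, and in SP_12D it fell by 0.27 on the log2 scale (adjusted p = 0.0228), not without Control_3D replicate 3 (0.127). CYP3A5, the CYP3A form of lung, rose by 0.77 in SP_3D (adjusted p = 0.0126) and by 0.63 in SP_12D (0.0307). The first was lost without Control_3D replicate 3 (0.0502) and the second without Control_3D replicate 1 or 3 or SP_3D replicate 1 or 3 (up to 0.0995). At 24 h the CYP3A5 value of 0.20 did not pass (0.715), but 0.76 with a correction for GC content and length did (0.018). CYP2W1, a P450 of fetal gut and tumours, fell in SP_12D by 0.83 on the log2 scale (adjusted p = 0.0159), not without Control_3D replicate 1 or 3 or SP_12D replicate 1 or 2 (up to 0.0593). Its difference in SP_3D was -0.65 (0.0549). This passed without the filter (0.0251), with only the 2 groups fitted (0.00329) and, at -1.14, with a correction for GC content and length (0.00167). CYP2D6 showed 0.28 and 0.09 at 3 and 12 days (adjusted p = 0.481 and 0.824).

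CYP2J2, which makes epoxides of arachidonic acid, was nearly absent from untreated cells. It held 0, 2 and 0 reads in Control_3D, 16, 8 and 3 in SP_3D, and 15, 8 and 18 in SP_12D. It rose in both (adjusted p = 0.00524 and 0.00159), with ratios of depth-adjusted reads of 14.7 (95% exact interval 3.69 to 127) and 18.9 (4.90 to 161). The fitted log2 values of 3.64 and 4.01 moved to 6.33 and 6.70 without Control_3D replicate 2, which held both control reads, to 3.02 and 3.39 without Control_3D replicate 1, and at 3 days to 2.93 without SP_3D replicate 1. In the second table the summed reads were 4 in Control_24H, 1 in SP_3H and 11 in SP_24H, too few for a test.

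The CYP3A genes are shown with their upstream bases because CYP3A5 was read in every library while CYP3A4, its liver relative, held at most 5 reads in any group, and NR1I2 was at the limit of detection. The 250 bases before the RefSeq start are given 5′ to 3′ on the minus strand of GRCh38.p14, from chr7:99679997-99680246 for CYP3A5 and from chr7:99784185-99784434 for CYP3A4. Capitals mark the nuclear receptor half-sites AGGTCA and AGTTCA or their complements TGACCT and TGAACT.
CYP3A5: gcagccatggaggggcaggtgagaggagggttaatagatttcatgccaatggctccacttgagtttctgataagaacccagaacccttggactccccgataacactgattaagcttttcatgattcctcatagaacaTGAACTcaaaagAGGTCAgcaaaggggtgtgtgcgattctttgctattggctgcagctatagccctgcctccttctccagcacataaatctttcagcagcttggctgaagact
CYP3A4: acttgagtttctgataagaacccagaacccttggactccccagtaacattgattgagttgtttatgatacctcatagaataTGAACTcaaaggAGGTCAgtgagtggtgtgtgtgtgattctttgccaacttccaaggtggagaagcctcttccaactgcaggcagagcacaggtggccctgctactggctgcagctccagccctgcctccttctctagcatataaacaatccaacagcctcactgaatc
Both windows hold an AGTTCA on the other strand followed after 6 bases by AGGTCA, beginning at -113 in CYP3A5 and at -169 in CYP3A4. AGGTCA was in 9 of the 31 windows of members (29.0%), beside 12.1% of all windows, and AGTTCA in 4 (12.9%), beside 8.8%. The CYP3A genes are close copies, and how reads that map to several of them were handled is not given in the sources used here.

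VDR rose at every time, and the enzymes around vitamin D did not follow it evenly. VDR lies at chr12:47841537-47943048 of GRCh38 on the minus strand. The Control_3D libraries had 6.03, 5.45 and 6.03 CPM, SP_3D 14.9, 14.9 and 15.3, and SP_12D 15.4, 17.1 and 17.2, more than the highest control in each case. The rise was 1.36 ± 0.113 in SP_3D (adjusted p = 9.87e-08) and 1.51 ± 0.112 in SP_12D (adjusted p = 2.56e-08). It was called under the stricter rule with each library left out in turn. In the second table Control_24H had 6.25, 6.87 and 10.3 CPM, SP_3H 24.6, 24.7 and 17.2, and SP_24H 14.3, 13.4 and 14.7. The receptor gene had thus risen by 1.49 ± 0.214 at 3 h (adjusted p = 0.00296) and by 0.84 ± 0.212 at 24 h (adjusted p = 0.0162), the latter not without Control_24H replicate 1 or 2 or SP_24H replicate 3 (up to 0.0631). SP_24H differed from SP_3H by -0.65 ± 0.208 (adjusted p = 0.0543).

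CYP24A1, which inactivates the vitamin D hormone and is a standard VDR target, lies at chr20:54153446-54173986 on the minus strand. It lay below Control_24H at 3 h of SP and above it at 24 h. Control_24H had 397.5, 650.3 and 765.7 CPM, SP_3H 336.7, 325.6 and 214.2, and SP_24H 1162, 1197 and 1212. The 3 groups did not overlap. It fell by 1.05 on the log2 scale at 3 h (SE 0.24, adjusted p = 0.0225) and rose by 0.98 ± 0.239 at 24 h (adjusted p = 0.015), and the 2 times differed by 2.03 ± 0.246 (adjusted p = 0.00117). The fall was lost without Control_24H replicate 2 or SP_3H replicate 2 or 3 (adjusted p up to 0.0724), and the rise without SP_24H replicate 2 (0.0507). With no filter on low counts neither passed (0.0955 and 0.0659), and the fall also missed the threshold with only the 2 groups fitted (0.0728). The difference between the 2 times passed with each library left out in turn, and with only those 2 groups fitted (0.000651).

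On the scale of days CYP24A1 was already high in untreated cells. Control_3D had 1384, 1574 and 1474 CPM, SP_3D 1577, 1511 and 1597, and SP_12D 1140, 1008 and 1282. SP_3D overlapped the controls and differed by 0.08 ± 0.0961 (adjusted p = 0.515). In SP_12D, CYP24A1 fell by 0.37 on the log2 scale (SE 0.0963, adjusted p = 0.0047) and lay below SP_3D by -0.45 ± 0.0963 (adjusted p = 0.00929).

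CYP27B1, which makes the active hormone, rose at 24 h and at 3 days, and did not pass at 3 h or 12 days. It averaged 1.59 ± 0.143 CPM in Control_24H, 1.89 ± 0.263 in SP_3H and 4.14 ± 0.317 in SP_24H, a rise of 1.38 ± 0.177 at 24 h (adjusted p = 6e-04) and a difference of 0.24 at 3 h (adjusted p = 0.482). In Control_3D it averaged 3.13 ± 0.268 CPM, in SP_3D 6.09 ± 1.02 and in SP_12D 3.13 ± 0.374. It rose by 0.96 ± 0.179 in SP_3D (adjusted p = 3.67e-04) and did not pass in SP_12D (adjusted p = 0.989), which lay below SP_3D by -0.96 ± 0.177 (adjusted p = 0.00359). CYP2R1, the main vitamin D 25-hydroxylase, passed in no comparison with controls, with log2 fold changes between -0.32 and 0.12. With a correction for GC content and length its values were 0.03 at 24 h and 0.33 at 3 days, and the latter passed (adjusted p = 0.0394).

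**Figure D4:**
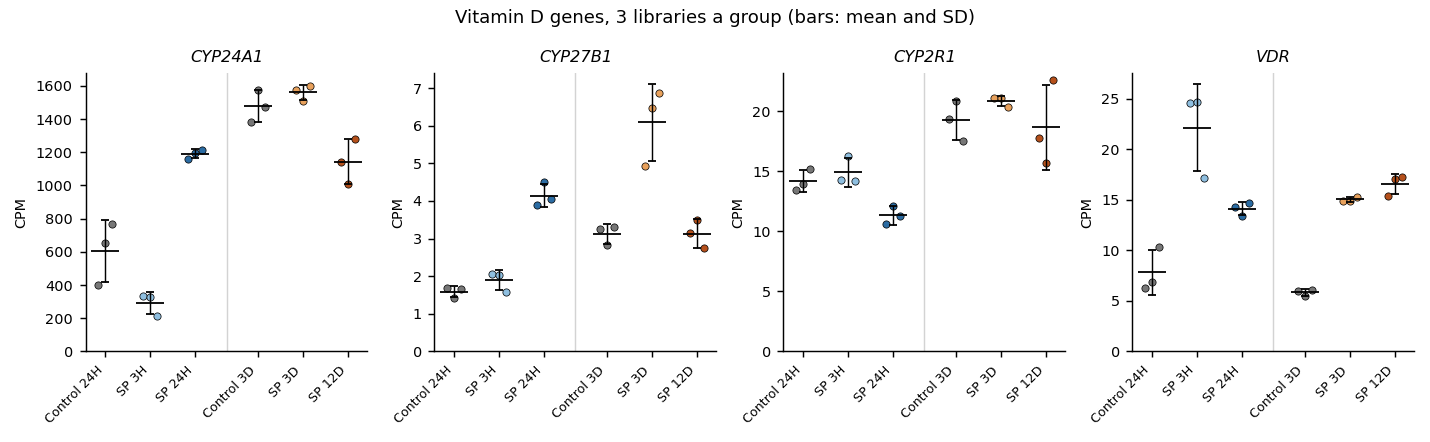
CPM of CYP24A1, CYP27B1, CYP2R1 and VDR in each library (points), with the mean of 3 as a horizontal mark and the SD as bars; the grey line parts the 2 tables. CYP24A1 is lowest in SP_3H at 214.2 to 336.7 CPM, where VDR stands at 17.2 to 24.7 CPM. The difference of VDR between SP_24H and SP_3H did not pass the threshold.

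Proteins that bind beside VDR and NR1I2 are retinoid X receptors, coactivators and corepressors. Of 8 tested genes for them, 2 rose and 4 fell in SP_3D, beside 25.2% and 23.3% of all genes. The lowest value was that of the coactivator NCOA2 with -0.99 ± 0.1 (adjusted p = 8.42e-07). Of 4 tested VDR targets outside the set, CD14, a receptor for bacterial lipopolysaccharide, rose by 1.08 ± 0.204 (adjusted p = 0.00119). THBD, the endothelial-type anticoagulant receptor thrombomodulin, fell by 0.71 on the log2 scale (SE 0.11, adjusted p = 7.19e-05).

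Among the P450s of fatty acids and their mediators, neighbours on chromosome 19 went different ways. CYP4F3, which inactivates leukotriene B4, had 42.6, 42.9 and 44.3 CPM in Control_3D, 18.0, 16.4 and 17.3 in SP_3D and 19.1, 21.2 and 23.4 in SP_12D. It fell by 1.33 on the log2 scale in SP_3D (SE 0.0963, adjusted p = 2.29e-08) and by 1.02 in SP_12D (SE 0.094, adjusted p = 2.66e-07). Without SP_12D replicate 1 the 12-day value was -0.98, just under 2-fold. At the shorter times it did not pass: Control_24H had 9.27, 18.8 and 9.99 CPM, SP_3H 9.03, 10.2 and 4.93, and SP_24H 11.4, 14.3 and 12.1, with differences of -0.65 (adjusted p = 0.247) and -0.01 (0.99).

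CYP4F22, which hydroxylates very long fatty acids for skin ceramides, rose from a few reads. It held 0, 2 and 0 reads in Control_24H, 2, 10 and 1 in SP_3H and 29, 84 and 37 in SP_24H. In the first table it held 2, 0 and 1 reads in Control_3D, 26, 24 and 31 in SP_3D and 16, 4 and 34 in SP_12D. The rise passed at 24 h (adjusted p = 0.0012), 3 days (1.19e-04) and 12 days (0.00117). As ratios of depth-adjusted reads these were 50.3 (95% exact interval 13.7 to 419), 29.3 (9.69 to 145) and 16.6 (5.38 to 82.9), and the ratio at 3 h, 6.20 (1.40 to 56.6), belonged to a difference that did not pass (adjusted p = 0.218). The fitted log2 value of 5.37 at 24 h moved to 8.30 without Control_24H replicate 2 and to 4.66 without Control_24H replicate 3. Those of 4.71 and 3.88 at 3 and 12 days moved to 5.45 and 4.62 without Control_3D replicate 1, and the latter to 3.16 without SP_12D replicate 3.

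CYP4F12 lies at chr19:15673018-15697174 of GRCh38, just beyond CYP4F3 at chr19:15640897-15662825 on the same strand, while CYP4F22 lies at chr19:15508525-15552317. CYP4F12 averaged 2.47 ± 0.658 CPM in Control_24H and 6.27 ± 1.09 in SP_24H, a rise of 1.35 ± 0.312 (adjusted p = 0.0112) that was lost without SP_24H replicate 2 (0.0514). At 3 and 12 days its values of 0.23 and 0.15 did not pass. CYP4F11 rose by 0.26 in SP_12D (adjusted p = 0.0376), not without Control_3D replicate 1 or 2, any SP_3D library or SP_12D replicate 1 or 3 (up to 0.134). With the replicate number as a block it also passed at 24 h (0.51, adjusted p = 0.0464, against 0.135 without the block). The CYP4F genes are close copies, so part of a change in one could come from reads of another, and the handling of such reads was not stated.

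CYP2U1, a fatty acid hydroxylase of thymus and brain at chr4:107931549-107953461 on the plus strand, had 11, 12.8 and 10.3 CPM in Control_3D, 23.2, 25.1 and 25.1 in SP_3D and 16.8, 15.9 and 20.9 in SP_12D. It rose by 1.10 ± 0.123 (adjusted p = 2.42e-06) and by 0.65 ± 0.124 (adjusted p = 4.13e-04), and the call at 3 days held with each library left out in turn. Genes on the opposite strand overlap 539 of the 5920 exonic bases of CYP2U1. SP_12D lay below SP_3D by -0.45 ± 0.118 (adjusted p = 0.0287), a difference lost without any SP_3D library or SP_12D replicate 1 or 2 (up to 0.13). Control_24H had 8.47, 9.83 and 7.50 CPM, SP_3H 8.82, 13.3 and 12.2, and SP_24H 11.4, 15.96 and 11.9. The 24 h rise of 0.61 ± 0.199 (adjusted p = 0.0459) was lost without any library of Control_24H or SP_24H or without SP_3H replicate 3 (up to 0.18), and 3 h gave 0.42 (0.226). CYP4V2, mutated in a crystalline retinal dystrophy, fell only in SP_12D, by 0.46 on the log2 scale (adjusted p = 0.0197), not without Control_3D replicate 1 or 2 or SP_12D replicate 1 or 2 (up to 0.0942).

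**Figure D5:**
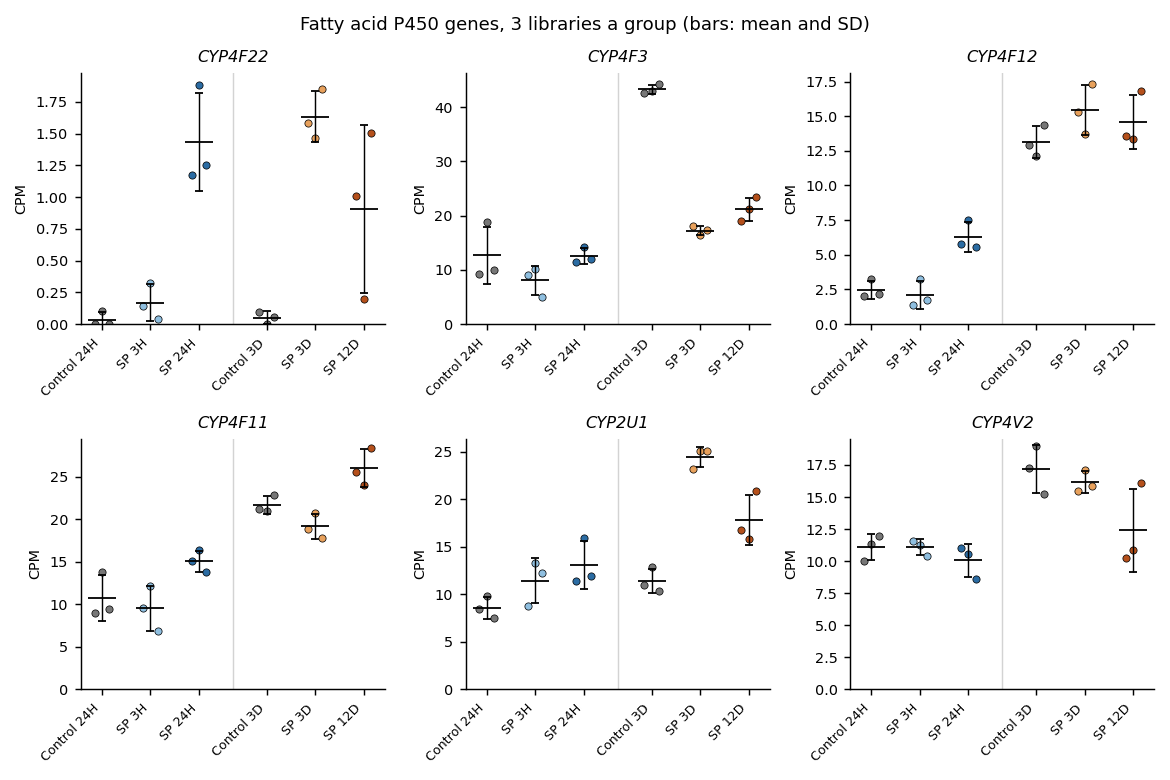
CPM of 6 P450 genes of fatty acids in each library (points), with the mean of 3 as a horizontal mark and the SD as bars; the grey line parts the 2 tables. CYP4F3 falls from 42.6 to 44.3 CPM in Control_3D to 16.4 to 18.0 in SP_3D, while CYP4F22 stands at 1.46 to 1.85 CPM in SP_3D beside at most 0.0956 in Control_3D.

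Of the sterol and steroid P450s that could be tested, CYP39A1, CYP46A1 and CYP11A1 rose from low levels and CYP7B1 fell. The first 3 were too scarce in untreated cells for the filter on low counts and passed it only through SP libraries. Genes this scarce in controls could hardly be tested without a rise, so their shared direction is no finding of its own. CYP39A1, which hydroxylates 24-hydroxycholesterol, had 0.526, 0.376 and 0.236 CPM in Control_3D, 1.10, 0.975 and 1.20 in SP_3D and 2.91, 1.45 and 2.04 in SP_12D. It rose by 1.47 ± 0.397 (adjusted p = 0.00611) and by 2.42 ± 0.358 (adjusted p = 4.15e-05). The stricter call at 12 days was lost without any library of Control_3D or SP_3D or without SP_12D replicate 1 (adjusted p up to 0.000563). In the second table it was below the filter, at 0.0351 to 0.159 CPM in Control_24H, 0.227 to 0.367 in SP_3H and 0.304 to 0.403 in SP_24H.

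CYP46A1, the cholesterol 24-hydroxylase of neurons that makes the substrate of CYP39A1, rose in all 4 comparisons with controls. It held 3, 10 and 3 reads in Control_3D, 43, 36 and 33 in SP_3D and 25, 15 and 75 in SP_12D, with ratios of depth-adjusted reads of 7.60 (95% exact interval 4.48 to 13.8, adjusted p = 0.00217) and 6.62 (3.91 to 12.0, adjusted p = 0.00373). Control_24H held 6, 6 and 5 reads, SP_3H 9, 27 and 36, and SP_24H 17, 31 and 17, with ratios of 4.04 (2.36 to 7.31, adjusted p = 0.0138) and 2.56 (1.48 to 4.66, adjusted p = 0.0383). The 24 h rise was lost without any library of Control_24H or SP_24H (up to 0.112) and with the replicate number as a block (adjusted p = 0.0667), and the 3 h rise with only the 2 groups fitted (0.0517). The fitted log2 values of 2.89 and 2.65 at 3 and 12 days moved to 3.78 and 3.55 without Control_3D replicate 2, and the latter to 1.87 without SP_12D replicate 3.

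CYP11A1, which cuts the cholesterol side chain at the first step of steroid synthesis, held 3, 0 and 4 reads in Control_3D, 16, 17 and 13 in SP_3D and 5, 6 and 14 in SP_12D. It rose at both times (adjusted p = 7.51e-04 and 0.0397), with ratios of 7.14 (95% exact interval 3.20 to 18.7) and 3.29 (1.38 to 9.01). The 12-day rise was lost without Control_3D replicate 1 or 2, any SP_3D library or SP_12D replicate 3 (up to 0.163), with DESeq2 (0.0654) and with only the 2 groups fitted (0.0785). The fitted log2 values of 2.77 and 1.66 moved to 3.42 and 2.30 without Control_3D replicate 3. Genes on the opposite strand overlap 917 of its 3397 exonic bases. CYP7B1, the oxysterol 7-hydroxylase, averaged 3.06 ± 0.637 CPM in Control_3D, 1.03 ± 0.371 in SP_3D and 0.922 ± 0.333 in SP_12D. It fell by 1.56 on the log2 scale (SE 0.304, adjusted p = 5.26e-04) and by 1.68 (SE 0.299, adjusted p = 2.34e-04). At 24 h it fell by 2.61 (SE 0.617, adjusted p = 0.0134), from 2.95 ± 1.25 to 0.497 ± 0.383 CPM, with a value of -3.30 without SP_24H replicate 1, and not past the threshold without SP_24H replicate 2 (0.0673) or without the filter on low counts (0.0575).

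CYP20A1, an orphan P450 with no agreed substrate at chr2:203238977-203306026 on the plus strand, fell at all 4 times. It averaged 33.5 ± 0.874 CPM in Control_24H, 20.1 ± 0.0867 in SP_3H and 18.2 ± 0.523 in SP_24H, and 33.9 ± 5.66 in Control_3D, 17.8 ± 1.05 in SP_3D and 19.6 ± 1.58 in SP_12D. The log2 fold changes were -0.74 ± 0.0964 (adjusted p = 0.00197), -0.88 ± 0.0963 (2.75e-04), -0.93 ± 0.121 (1.25e-05) and -0.79 ± 0.119 (5.27e-05) in SP_3H, SP_24H, SP_3D and SP_12D in turn. CYP27C1, which desaturates retinol in skin, fell at 24 h by 0.84 on the log2 scale (SE 0.156, adjusted p = 0.00401), from 12.1 ± 1.68 to 6.75 ± 0.607 CPM, and had -0.17, -0.28 and -0.15 at the other times, which did not pass.

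POR, the shared electron donor of the microsomal P450s, had 214.3, 213.9 and 250.9 CPM in Control_3D, 296.1, 315.2 and 306.2 in SP_3D and 223.4, 219.9 and 239.3 in SP_12D. It rose in SP_3D by 0.43 ± 0.0828 (adjusted p = 4.44e-04) and stood at 0.01 ± 0.0827 in SP_12D, below SP_3D by -0.43 ± 0.0827 (adjusted p = 0.00504). Control_24H had 104.7, 127.6 and 136.5 CPM, SP_3H 148.3, 180.0 and 133.3, and SP_24H 201.6, 274.3 and 228.3. The rise of 0.93 ± 0.16 at 24 h passed (adjusted p = 0.00262), and the difference of 0.32 at 3 h did not (0.244). Electron donors and their partners, a list of 12 that also holds POR, had 7 of 11 tested genes higher and none lower in SP_3D (median 0.38). Over all genes 25.2% were higher and 23.3% lower (median -0.02). The changed genes ran from CYB5R3 with 0.37 ± 0.0746 (adjusted p = 6.45e-04) to CYB5R1 with 1.08 ± 0.0972 (adjusted p = 2.35e-07), both reductases of cytochrome b5. In SP_12D the count was again 7 higher and none lower of 11, beside 26.4% and 23.4% of all genes. At 24 h it was 7 and none of 12, beside 16.8% and 12.0%.

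Of 12 genes of the haem pathway, which supplies the prosthetic group, 3 were higher and 3 lower in SP_3D. This was near the shares over all genes (25.2% and 23.3%). CPOX, a late step of synthesis, rose by 0.39 ± 0.0864 (adjusted p = 0.00147), and HMOX1, which degrades haem, fell by 0.46 on the log2 scale (SE 0.105, adjusted p = 0.00198). Of 24 tested conjugating enzymes, which act after P450s, 8 rose and 5 fell in SP_3D, beside the same 25.2% and 23.3% of all genes. They ran from UGT8, the ceramide galactosyltransferase, with 3.18 ± 0.322 (adjusted p = 8.83e-07) to the steroid-conjugating UGT2B15 with -1.40 ± 0.373 (adjusted p = 0.0057). Of 18 further P450 genes outside the set only 3 were tested in the first table. CYP2A6, the nicotine oxidase, rose by 1.04 ± 0.361 (adjusted p = 0.026), not without Control_3D replicate 1 or 2 or SP_3D replicate 1 or 3 (up to 0.087), CYP2F1 rose by 0.70 (0.0404), not without Control_3D replicate 1 or 3 or SP_3D replicate 2 or 3 (up to 0.199), and TBXAS1, thromboxane synthase, fell by 1.94 (SE 0.152, adjusted p = 5.33e-08).

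Treatment times were also compared directly within each table. SP_24H against SP_3H, 7 of 23 tested members were higher and 4 lower (30.4% and 17.4%), beside 11.7% and 8.4% of all genes, with a median log2 difference of 0.19. The higher ones were CYP24A1, CYP1A1, AHRR, CYP27B1, CYP4F12, CYP4F22 and POR, and the lower ones TIPARP, CYP7B1, CYP27C1 and CYP2R1. With 1 library left out in turn, CYP7B1 (adjusted p up to 0.106), CYP2R1 (0.136), CYP27C1 (0.0627), POR (0.101) and AHRR (0.0788) each lost this difference at least once. Leaving out SP_3H replicate 1 or SP_24H replicate 3 left 7 changed members, and leaving out SP_24H replicate 2 left 6. In SP_12D against SP_3D, 1 of 27 was higher (CYP4F11) and 4 were lower (CYP24A1, CYP27B1, CYP2U1 and POR), 3.7% and 14.8%, beside 4.46% and 3.65% of all genes, with a median of -0.16. Without SP_12D replicate 3, which stood apart from its group, 15 members differed, 2 higher and 13 lower. Without SP_3D replicate 1, SP_3D replicate 3 or SP_12D replicate 1, 3 differed, all lower. Differences over all genes were not counted with a library left out, so whether they moved likewise was not tested. CYP4F11 was not higher without SP_3D replicate 1 or 3 or SP_12D replicate 1 (adjusted p up to 0.0918).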

How the data were processed

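The authors counted reads per gene with featureCounts after alignment with STAR 2.7.9a, as the submitters' processing notes name these tools, and deposited 2 tables of whole-number counts for GRCh38 gene identifiers. The sources used here give neither the strand setting nor how multi-mapping reads were handled. Of the 61541 identifiers, 61369 had a symbol in GENCODE v44. Counts entered edgeR 4.0.16 (R 4.3.3) as deposited, 1 table at a time, with the filterByExpr filter (minimum count of 10), TMM scaling and a quasi-likelihood fit over all 9 libraries of the table. The filter kept 17775 genes of the table in days and 17377 of the table in hours. P-values were adjusted by the Benjamini-Hochberg method over all genes tested. CPM values use the same scaling without a prior count. Ratios for genes with few reads are summed reads divided by the depth ratio, with a 95% exact binomial interval, and cover counting error only. The procedure was tested on simulated data.

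The 41 genes and the pathway lists were chosen with earlier results of these data known. By the naming rule, every member is accounted for, values in every library are given for members called in a comparison with controls and for 9 set members (CYP24A1, CYP1A1, CYP1B1, POR, VDR, AHR, AHRR, TIPARP and NR1I2), other changed members are named with their log2 fold change, and of each pathway list the highest and lowest changed gene in SP_3D. CYP2F1 was named after its value was seen. Some genes that this rule names are not reported here. Samples were grouped by their labels. Replicate numbers were checked for pairing by the correlation of deviations from the group means. SP_24H and Control_24H correlated at 0.499, 0.170 and 0.504 for the 3 numbers, so the numbers were taken to pair these 2 groups, from the data alone since no label says what a number shares. The values printed come from the fit without the replicate block unless said, and the blocked value is given where it changes a call at 24 h. By comparison, libraries of the same number gave -0.593 to -0.028 in SP_3H and Control_24H, and at most 0.162 in the first table. Libraries of unlike number gave up to 0.576 in SP_3H and Control_24H. SP_24H replicate 2 had 0.175 with Control_24H replicate 3. Correlations of this size thus also arose without a shared number, and the pairing remains an assumption. Alternatives were DESeq2 1.42.0, its size factors in edgeR, no filter, only the 2 groups compared, the replicate number as a block, a correction for GC content and length, and each library left out in turn.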

Additional observations from a re-analysis of the deposited data

Results flagged for a closer look

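The direct tests between treatment times found 16 differences among the members, and each is given as a log2 difference of the later minus the earlier time by edgeR. These tests contrast treated libraries only, but the untreated libraries of the table share in the filter, the scaling and the spread. Between 3 h and 24 h of SP, the later libraries were higher for CYP4F22 (2.96), CYP24A1 (2.03), CYP1A1 (1.68), CYP4F12 (1.53), CYP27B1 (1.14), AHRR (0.86) and POR (0.61). They were lower for CYP7B1 (-2.42), TIPARP (-1.23), CYP27C1 (-0.66) and CYP2R1 (-0.40), the last of which was lost without Control_24H replicate 1 (adjusted p = 0.0555) or 2 (0.0652) and, at -0.16, with a correction for GC content and length (0.583). CYP4F22 moved from 2.96 to 4.13 without SP_3H replicate 2 and CYP7B1 from -2.42 to -3.11 without SP_24H replicate 1. Between 3 and 12 days, CYP4F11 was higher (0.44), and CYP27B1 (-0.96), CYP24A1 (-0.45), CYP2U1 (-0.45) and POR (-0.43) were lower. For CYP24A1 the differences from Control_24H also had opposite signs at 3 h and 24 h, both past the threshold. Without the filter on low counts neither passed (adjusted p = 0.0955 and 0.0659). The 3 h libraries had no untreated group of their own time, so the effect of SP there cannot be told from that of time in culture.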

How the results depend on the processing

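No member's change past the threshold reversed under any alternative. Beside each count of called members, except those with 1 library left out, the genes higher and lower under the same setting are given. DESeq2 called 1 member at 3 h (297 genes higher and 118 lower), 5 at 24 h (997 and 195) and 6 between 3 and 24 h (555 and 101), where edgeR called 0 members. By edgeR 108 genes were higher and 11 lower at 24 h, 5 and 0 between 3 and 24 h, and 0 at 3 h. Without a filter on low counts the called members were 1 at 3 h (309 genes higher and 99 lower), 5 at 24 h (966 and 165), 3 between 3 and 24 h (517 and 85), 10 at 3 days (1679 and 457) and 8 at 12 days (1758 and 519). Correcting for GC content and length gave 1 at 3 h (83 and 26) and 1 at 24 h (351 and 69). Fitting only the 2 groups compared gave 8 called at 3 days (1501 and 489), 2 at 12 days (887 and 318), and 2 changed at 3 h (631 and 346). The causes were not tested. With 1 library left out in turn, changed members ranged from 3 to 6 at 3 h, 8 to 14 at 24 h, 6 to 12 between 3 and 24 h, 17 to 19 at 3 days, 16 to 19 at 12 days and 3 to 15 between 3 and 12 days. Called members ranged from 3 to 9 at 3 days and 1 to 6 at 12 days, and were 0 in each of the other comparisons. Counts over all genes were not made with a library left out. Of 76 changes past the threshold, the replicate block kept 73, DESeq2 74, its size factors 73, no filter 70, the 2-group fits 65 and the GC and length correction 74. The replicate block took CYP24A1 at 3 h (adjusted p = 0.0602), CYP46A1 at 24 h (0.0667) and CYP11A1 at 12 days (0.0564) to the other side of the threshold, added CYP4F11 at 24 h (0.0464) and between 3 and 24 h (0.025), CYP2W1 at 3 days (0.0273) and CYP2S1 between 3 and 12 days (0.0429), and moved no count of members by over 1.5 times. Of these comparisons only SP_24H against Control_24H was taken as paired. Other lost changes were CYP2U1 at 24 h (0.0518 with DESeq2's size factors, 0.0646 with 2 groups) and between 3 and 12 days (0.055 with 2 groups), CYP2S1 at 24 h (0.0986 without the filter), CYP7B1 between 3 and 24 h (0.0969 without it), CYP4F11 at 12 days (0.0589 with DESeq2, 0.0763 with 2 groups), CYP3A5 at 12 days (0.0712 with 2 groups, 0.0537 with the GC and length correction) and CYP2R1 between 3 and 24 h (0.0595, 0.238 and 0.0583 with size factors, no filter and 2 groups). AHR at 3 h passed with DESeq2 (0.0416), no filter (0.0067) and the GC and length correction (0.017). VDR between 3 and 24 h passed with DESeq2 (0.0282), no filter (0.0197), 2 groups (0.0228) and that correction (0.00181). Over all left-out libraries, 584 of 684 values stayed past the threshold. Depth limits the members with few control reads, among them CYP2J2, CYP4F22, CYP11A1, CYP1A1, CYP39A1 and CYP46A1, whose tested control groups held 2 to 27 reads.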
